A study of Mus musculus with 8 samples.

Results

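Aminoacylases and the enzymes of acyl-glycine conjugation work on the same kind of bond from opposite sides, one splitting an acyl group from an amino acid and the other joining them. The 8 mouse genes described here were Acy1, Acy3, Acsm1, Acsm2, Acsm3, Acsm5, Glyat and Keg1, taken by symbol from the 35275 genes of a kidney RNA table. They were chosen by measured values, since their levels in knockout and wild-type kidneys of these same mice were known when the list was drawn up. The difference between genotypes is therefore given as a description, with no test of it as a finding.

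The table came from 8 male mice at 40 weeks of age, each giving its whole left kidney and 1 library of poly-A RNA. The 4 knockout mice (KO) were Ctrp1-/-, homozygous for the C1qtnf1tm1Lex allele, in which 679 bp were deleted, comprising the coding part of exon 4 and some of the 3' UTR. C1qtnf1 encodes CTRP1, a secreted relative of adiponectin, and the deletion is in every cell from conception. The 4 wild-type mice (WT) were +/+ littermates from crosses of heterozygotes. The allele was made in 129S5/Sv embryonic stem cells and crossed onto C57BL/6J for over 6 generations. Mice of both genotypes ate a high-fat diet, with 60% of energy as fat, from the age of 6 weeks, so no mouse on another diet was compared. C1qtnf1, on chromosome 11, was at 5.27 to 5.55 FPKM in WT and at 0.322 to 0.883 FPKM in KO, and each library matched its genotype. FPKM is a count of sequenced fragments scaled for the length of the gene and the depth of the library. None of the 8 genes lies on chromosome 11.

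Aminoacylase 1, the product of Acy1, frees amino acids from their N-acetyl forms in the cytosol. Aminoacylase 3, the product of Acy3, prefers N-acetylated aromatic amino acids and mercapturates, the acetylcysteine conjugates through which the body excretes reactive compounds. Conjugation with glycine takes a pair of steps in mitochondria. A medium-chain acyl-CoA synthetase of the Acsm family first ties a carboxylic acid such as benzoate or a medium-chain fatty acid to coenzyme A. Glycine N-acyltransferase, the product of Glyat, then passes the acyl group to glycine, and with benzoate the product is hippurate, which the proximal tubule secretes into urine. Keg1, named kidney expressed gene 1, encodes a protein of the glycine N-acyltransferase family. Kidney proximal tubule and liver are the main sites of these reactions.

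The Acsm genes and the acyltransferase genes each stand in a row on 1 chromosome (mm10, GENCODE M21 annotation). Acsm5 (chr7:119519463-119545551), Acsm2 (chr7:119554340-119600690), Acsm1 (chr7:119607026-119662515) and Acsm3 (chr7:119760923-119787513) all lie on the plus strand within 268.1 kb, with Acsm4, Thumpd1 and the pseudogene Ppp1ccb between Acsm1 and Acsm3. Glyat (chr19:12633308-12653911) and Keg1 (chr19:12695786-12719902) lie on the plus strand within 86.6 kb, with a pair of olfactory receptor genes between them. Acy3 (chr19:3986570-3990007, plus strand) lies elsewhere on chromosome 19, and Acy1 (chr9:106432981-106438319, minus strand) on chromosome 9. The longest open reading frames of the 4 Acsm genes were identical at 61.4% to 64.4% of aligned bases in each pair, and those of Glyat and Keg1 at 72.3%. Acy1 and Acy3 were identical at 61.0% of the bases that could be aligned, but at 45.8% over the alignment with its gaps. No stretch of 50 bases was shared between any of the 8 genes, so reads of one would not be taken for another.

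A promoter of each of the 2 most abundant of the 8 genes carried the letters TATAAA at the place of a TATA box, the element that positions the start of transcription. These promoters are shown because the other 6 genes did not have these letters anywhere between 250 bases before and 50 bases after their start sites. The sequences are RefSeq's (GRCm38.p6), 5′ to 3′ on the gene's own strand, with TATAAA in capitals. It began 30 bases before the start site in Acy3 (chr19:3986528-3986557, plus strand) and 28 bases before it in Acsm2 (chr7:119554300-119554329, plus strand).
Acy3: gacctgcgggccTATAAAtacagcctccta
Acsm2: ttgtgtggtgtaTATAAAggacatggaaga

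Of 32851 mouse promoters of this length, 13.6% held TATAAA on either strand and 1.84% held it on the gene's strand beginning 35 to 20 bases before the start. All 8 genes had a promoter in the RefSeq table, Acsm2 with 2, of which only that shown above held TATAAA. Letters taken for the sites of 3 regulators of liver and proximal tubule genes were searched on both strands. These were CAAAGTCCA for HNF4 (in 0.475% of promoters), GTTAATNAT for HNF1 (0.801%) and AGGTCANAG for the direct repeat bound by PPAR (2.01%), and none was found in the 8 genes' windows. A match is a description of letters and not of binding, and no match says only that these letters are absent from these windows.

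The 8 genes covered a wide range of levels. In WT the mean was 1529.6 FPKM for Acy3, 697.0 for Acsm2, 173.3 for Keg1, 120.1 for Glyat, 56.9 for Acy1, 52.0 for Acsm1, 40.6 for Acsm5 and 19.4 for Acsm3. The means of KO stood in the same order. Ranked by mean FPKM over the 8 mice among all 35275 genes, Acy3 was 23rd and Acsm2 57th, while Acsm3 was 2961st. Neighbours in the order did not overlap between WT mice, except Acy1 (53.0 to 60.2 FPKM) and Acsm1 (46.6 to 55.6 FPKM). FPKM depends on the gene length used, which for 6 of the 8 genes was that of the longest GENCODE M21 transcript. With all annotated exons as the length, WT Acsm1 was at 49.6 and Acy1 at 36.2 FPKM, so these 2 changed places. On that length Keg1 (93.1 ± 15.4 FPKM, SD, n = 4) and Glyat (82.8 ± 6.25 FPKM) differed by less than the SD of Keg1.

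**Figure D1:**
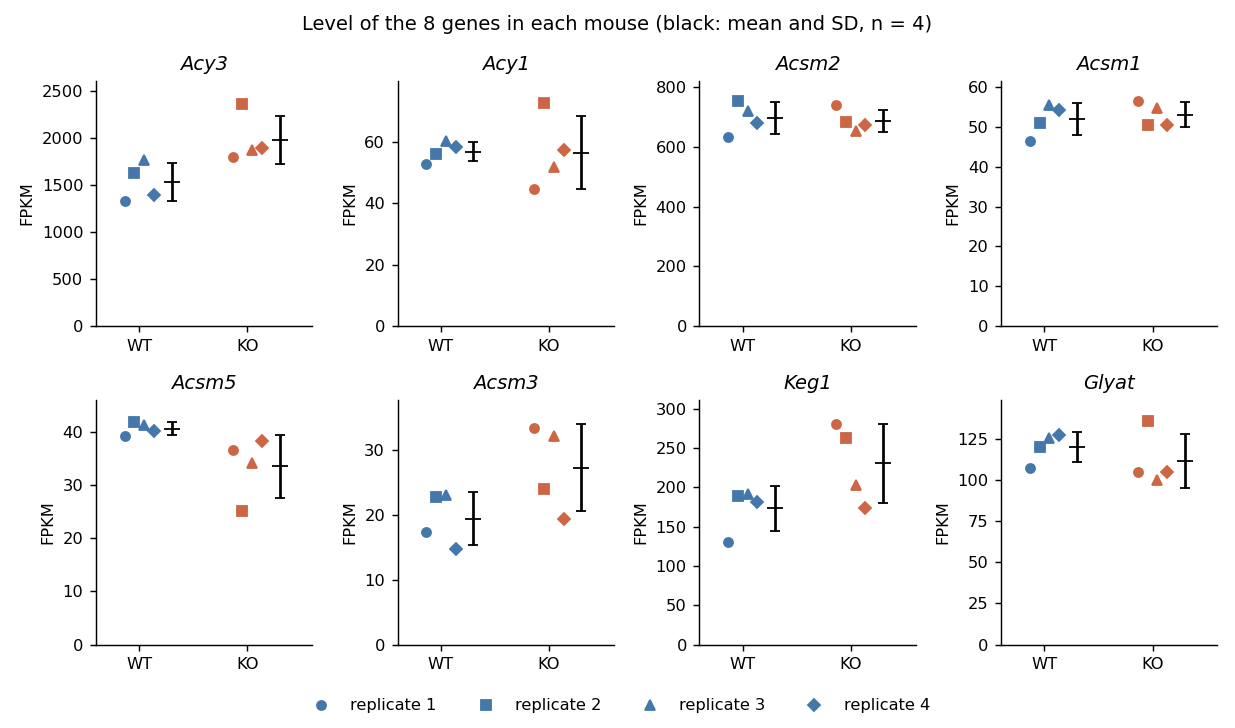
FPKM of each of the 8 genes in each mouse, 4 WT (blue) and 4 KO (red), with an axis of its own per gene that starts at 0; symbols mark the replicate and the black bars the mean and SD. Acy3 in KO lay above every WT mouse and Acsm5 below every WT mouse, and KO replicate 2 was the highest mouse for Acy3, Acy1 and Glyat and the lowest for Acsm5.

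Depth was 17884140 to 20344859 reads per library, and the 8 genes had from 987 reads (the lowest mouse for Acsm3) to 91345 reads (the highest for Acsm2). KO replicate 2 stood apart from the other 7 libraries by transcript length. Its median deviation from the WT mean was 0.34 on the log2 scale over the 3032 tested genes with the shortest transcripts and -0.34 over the 3027 with the longest, against -0.06 to 0.03 in the shortest group for the other 7 mice. The sum of its FPKM was 525275, where the other libraries had 437496 to 450339. Its mean over 12 proximal tubule markers was -0.50, while KO replicates 1, 3 and 4 had -0.11 to -0.05 and WT mice -0.11 to 0.07. The differences of the 8 genes are therefore also given without KO replicate 2. In bulk tissue, fewer cells of a type and less RNA per cell cannot be told apart. How far the length trend of KO replicate 2 entered its proximal tubule mean was not tested.

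Differences were computed with limma on the log2 of scaled FPKM with 1 added, over the 12118 genes with a mean of at least 1 FPKM, all 8 genes among them. They are KO minus WT, with the standard error over 4 against 4 mice. Past an adjusted p of 0.05 (limma, Benjamini-Hochberg), 2 genes of the table were higher in KO (0.0165%) and 3 lower (0.0248%), and 0 of the 8 genes were among them (adjusted p = 0.78 to 0.99). limma-voom on reads recovered from the table also called 0 of the 8. At an unadjusted p under 0.05 stood 3 of the 8 genes, where 5.95% of all tested genes did. These were Acy3, Acsm3 and Acsm5, and since the list was chosen with these values known nothing is read from that count. Of the 8 genes 5 had positive and 3 negative differences with a median of 0.03, beside a median of -0.01 and 47.2% positive over all tested genes. Each p-value sets the difference against the spread of the mice within genotypes, which limma estimates with help from all tested genes.

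Among the aminoacylases, Acy3 was higher in KO and Acy1 had nearly the same mean in both genotypes. Acy3 was at 1329.8, 1627.0, 1761.9 and 1399.6 FPKM in WT replicates 1 to 4, and at 1799.7, 2362.7, 1873.2 and 1891.6 FPKM in KO replicates 1 to 4. All 4 KO values lay above all 4 WT values, which held for 2.29% of tested genes. The gap was narrow, from 1761.9 to 1799.7 FPKM, and after scaling KO replicate 1 (0.22 above the WT mean on the log2 scale) fell just under WT replicate 3 (0.25). The difference was 0.40 ± 0.15 on the log2 scale (SE, 95% interval 0.05 to 0.74). Without KO replicate 2 it was 0.28, and the mean of the other 3 KO mice was 1854.8 FPKM. Acy3 shares 5.67% of its 50-base stretches with Gm48931, a predicted gene not listed in the table, so a small part of its reads is uncertain.

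Acy1 was at 53.0, 56.1, 60.2 and 58.4 FPKM in WT and at 44.6, 72.6, 52.0 and 57.4 FPKM in KO. The WT mice lay close together, whereas KO held both the lowest and the highest of the 8 values, in KO replicates 1 and 2. The difference was -0.01 ± 0.16 (95% interval -0.35 to 0.34). It was -0.16 without KO replicate 2. The level of Acy3 over that of Acy1 in the same mouse does not depend on library scaling. It was 25.1, 29.0, 29.3 and 24.0 in WT and 40.4, 32.5, 36.0 and 33.0 in KO, and the groups did not overlap. The FPKM of Acy3 taken singly did not overlap either. This ratio was chosen after the values were seen, and the share of other gene pairs that separate in this way was not computed.

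Of the acyl-CoA synthetases, Acsm2 made up most of the family's RNA and differed between genotypes by less than the spread of the mice. It was at 633.6, 753.9, 721.7 and 679.0 FPKM in WT and at 740.7, 683.0, 654.2 and 672.5 FPKM in KO. The groups overlapped throughout, and the difference was 0.00 ± 0.11 (95% interval -0.23 to 0.24), or -0.02 without KO replicate 2. Its share of the summed FPKM of the 4 Acsm genes was 86.2% ± 0.397 in WT and 85.8% ± 1.23 in KO (SD, n = 4). Acsm1, for which benzoate and medium-chain acids are known substrates, was at 46.6, 51.1, 55.6 and 54.4 FPKM in WT and at 56.5, 50.6, 54.9 and 50.4 FPKM in KO. Its groups overlapped as well, with a difference of 0.05 ± 0.09 (95% interval -0.16 to 0.26), and the same 0.05 without KO replicate 2. Acsm1 and Acsm2 varied the least of the 8 genes, each with an SD of 0.12 within genotypes on the log2 scale, where the median tested gene had 0.16.

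Acsm3 and Acsm5, the synthetases with the lowest levels, had differences of opposite sign. Acsm3 was at 17.3, 22.7, 23.0 and 14.7 FPKM in WT and at 33.4, 24.0, 32.2 and 19.3 FPKM in KO. KO replicates 1 and 3 were well above WT, while KO replicate 4 lay inside the WT range. The difference was 0.48 ± 0.19 (95% interval 0.05 to 0.91), and 0.50 without KO replicate 2. Acsm3 was the most variable of the 8 genes, with an SD of 0.33 within genotypes, higher than that of 92.4% of tested genes. It shares 1962 exon bases with Eri2 on the opposite strand, and whether the reads were counted by strand is not given in the sources used here. Of the 50-base stretches of Acsm3, 33.98% are shared with Eri2, so a part of its reads is uncertain. Eri2 itself was listed at 0.37 to 0.77 FPKM, far under Acsm3. That level does not show how reads of the shared bases were counted.

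Acsm5 was at 39.1, 41.8, 41.2 and 40.1 FPKM in WT and at 36.6, 25.1, 34.1 and 38.3 FPKM in KO. The WT values were within 3 FPKM of each other, and all 4 KO values lay below them, which held for 3.01% of tested genes. KO replicate 4 was only just below WT replicate 1, and after scaling it was above it (-0.09 against -0.11). The difference was -0.27 ± 0.11 (95% interval -0.51 to -0.02). Without KO replicate 2, the lowest mouse, it was -0.16. Acsm5 shares 104 exon bases with Pdilt on the opposite strand, itself at 0.328 to 0.915 FPKM. Within a mouse, the ratio of Acsm3 to Acsm5 was 0.441, 0.543, 0.558 and 0.367 in WT and 0.913, 0.959, 0.946 and 0.505 in KO. KO replicate 4 lay within the WT range of this ratio, and the other 3 KO mice lay far above it.

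The acyltransferase neighbours Glyat and Keg1 had differences of opposite sign too, and both genes overlapped between genotypes. Glyat was at 107.2, 120.5, 125.4 and 127.3 FPKM in WT and at 105.0, 136.0, 99.9 and 105.2 FPKM in KO. KO replicates 1, 3 and 4 lay below every WT mouse, and KO replicate 2 above every WT mouse. After scaling, KO replicates 1 (-0.21 from the WT mean) and 4 (-0.20) were level with WT replicate 1 (-0.22). The difference was -0.09 ± 0.14 (95% interval -0.39 to 0.21), and -0.22 without KO replicate 2, which left the other KO mice with a mean of 103.3 FPKM. Keg1 was at 130.8, 189.2, 191.7 and 181.6 FPKM in WT and at 280.9, 263.1, 202.5 and 174.2 FPKM in KO. KO replicates 1 and 2 were far above WT, and KO replicate 4 lay within the WT range. The difference was 0.42 ± 0.19 (95% interval -0.01 to 0.85), and 0.32 without KO replicate 2.

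Taken within each mouse, Keg1 over Glyat was 1.22, 1.57, 1.53 and 1.43 in WT and 2.68, 1.93, 2.03 and 1.66 in KO. The 4 KO values lay above the 4 WT values for this ratio, although the 2 genes overlapped between genotypes when taken singly. The ratio was chosen after the values were seen, as were those of Acy3 to Acy1 and Acsm3 to Acsm5. For none of these ratios was the share of other gene pairs that separate in this way computed. Keg1 shares 491 exon bases with the predicted gene Gm15962 on the opposite strand, which lay at 5.0 to 8.78 FPKM in WT and 6.21 to 15.3 FPKM in KO. As strand is not given, some reads of Keg1 may belong to Gm15962 or the reverse.

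**Figure D2:**
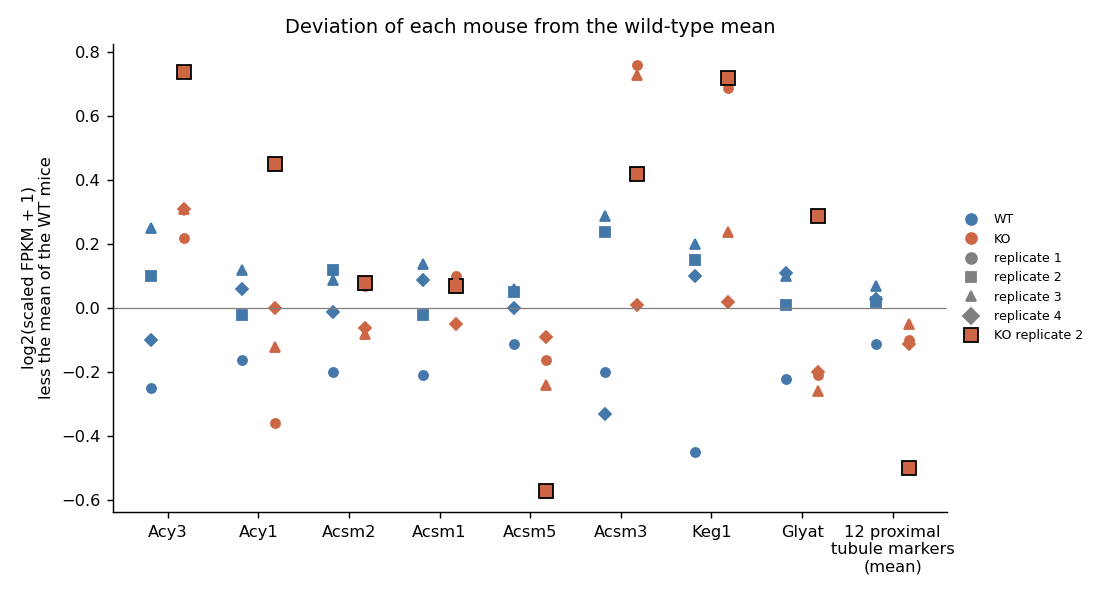
Deviation of each mouse from the WT mean on the log2(scaled FPKM + 1) scale for the 8 genes and for the mean of 12 proximal tubule markers; blue is WT, red is KO, symbols mark the replicate and KO replicate 2 is outlined. KO replicate 2 was the highest mouse for Acy3, Acy1, Glyat and, narrowly, Keg1. It was the lowest for Acsm5 and for the proximal tubule markers, whose mean stood at -0.50 in this mouse.

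KO replicate 2 lay above the WT mean for each of the 8 genes except Acsm5. On the scaled log2 scale it was 0.74 above that mean for Acy3, 0.72 for Keg1, 0.45 for Acy1, 0.42 for Acsm3 and 0.29 for Glyat. It was only 0.08 above for Acsm2 and 0.07 for Acsm1, and 0.57 below for Acsm5. After the trend with transcript length had been taken out of every library, the differences were 0.33 for Acy3, -0.05 for Acy1, 0.02 for Acsm1, 0.09 for Acsm2, 0.50 for Acsm3, -0.26 for Acsm5, -0.08 for Glyat and 0.43 for Keg1. Those of Acy3, Acsm3, Acsm5 and Keg1 kept their sign in each of the 19 alternatives tried, while that of Acsm2 changed sign in 6, that of Acy1 in 5 and those of Acsm1 and Glyat in 1 each. All the alternatives reuse the mice by whose values the genes were chosen. Those that change only the filter or the trend and robust options of limma cannot move a difference. The tally is therefore a description and no independent check.

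**Figure D3:**
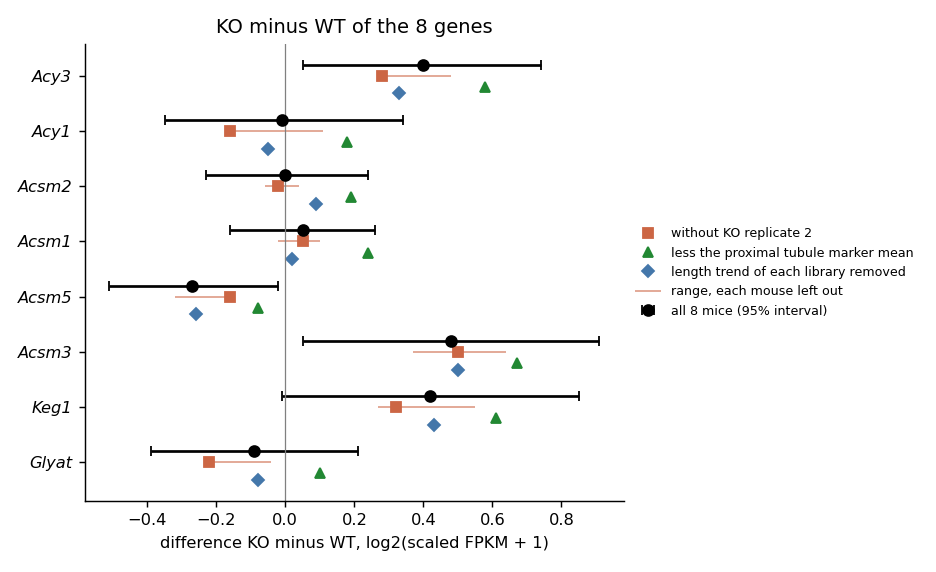
Difference KO minus WT of the 8 genes on the log2(scaled FPKM + 1) scale with its 95% interval (black), beside the value without KO replicate 2 (red squares), the range when each mouse is left out (thin red lines), the value less the proximal tubule marker mean (green) and the value with each library's length trend removed (blue). The intervals are not adjusted for the number of genes, and the 8 genes were chosen with these values known. Nothing is therefore read from where an interval lies against 0. Those of Acy3 and Acsm3 lay above 0 and that of Acsm5 below it (limma adjusted p = 0.78, 0.80 and 0.81). Those of Acsm1, Acsm2, Acy1 and Glyat spanned 0, and that of Keg1 just reached it.

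Markers of the cells that make these enzymes were compared beside them. The 12 proximal tubule markers summed to 6789.7 to 8301.0 FPKM in WT and 6863.7 to 7741.9 FPKM in KO, none at 0 in all mice, with 2 positive and 10 negative differences (median -0.21, or -0.10 without KO replicate 2). Measured from the mean of these markers in the same mouse, the differences were 0.58 for Acy3, 0.67 for Acsm3, 0.61 for Keg1, 0.24 for Acsm1, 0.19 for Acsm2, 0.18 for Acy1, 0.10 for Glyat and -0.08 for Acsm5. This reference was lowest in KO replicate 2. Without that mouse the same differences were 0.36 for Acy3, 0.58 for Acsm3, 0.40 for Keg1, 0.13 for Acsm1, 0.06 for Acsm2, -0.07 for Acy1, -0.13 for Glyat and -0.08 for Acsm5, so those of Acy1 and Glyat were negative again. Of 3 markers of the S3 segment, the last stretch of the proximal tubule, 1 was positive and 2 negative (median -0.04), and KO replicate 2 had a mean of 0.36 where the 3 remaining KO mice had -0.11 to -0.04. The male-biased kidney genes, 7 of 8 positive with a median of 0.18, averaged 0.52 in KO replicate 2, -0.02 to 0.14 in the remaining KO mice and -0.12 to 0.14 in WT. Slc7a13 and Cyp7b1 belong to both the S3 and the male-biased list, so these lists are not separate observations. The part of these cells in the differences of the 8 genes was not tested.

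A pair of other marker lists had means that did not overlap between genotypes. The marker lists were chosen with earlier results of these data known, so nothing is read from this separation. Urothelial markers had means of 0.69 to 1.56 in KO and -0.25 to 0.35 in WT. Of 6 tested genes 6 were positive, where 47.2% of all tested genes were. At an unadjusted p under 0.05 (limma) stood 6, where 5.95% of all tested genes did, and 0 passed the adjusted threshold. The urothelial markers summed to 14.8 to 34.1 FPKM in KO and 3.98 to 10.2 FPKM in WT, under the level of Acy3 alone in any mouse. Immediate early and heat shock genes, a sign of tissue handling as well as of stress, had 8 of 8 positive, 2 of them at an unadjusted p under 0.05 and 0 past the adjusted threshold of limma. Their mean was 1.23 in KO replicate 2, 0.52 to 0.65 in KO replicates 1, 3 and 4, and -0.22 to 0.16 in WT, and the median difference was 0.73, or 0.37 without KO replicate 2. Hepatocyte markers, for the other organ in which glycine conjugation is strong, summed to 144.5 to 213.9 FPKM in WT and 140.4 to 304.5 FPKM in KO, with 3 of 5 tested genes positive. Adipocyte markers summed to 0.188 to 4.92 FPKM in WT and 0.797 to 5.15 FPKM in KO. Whether any of these moved the 8 genes was not tested.

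The genes that supply or use the same metabolites were listed in 8 groups, with 78 genes tested. By limma 0 of the 78 passed an adjusted p of 0.05, 8 (10.3%) were at an unadjusted p under 0.05, where 5.95% of all tested genes were, and 29 (37.2%) had positive differences, where 47.2% of all tested genes did. limma-voom also called 0 of them, and so did limma without KO replicate 2. The 2 genes with the lowest p in each list are named below, so a lack of overlap follows in part from that choice. Over all tested genes, KO values lay all above WT in 2.29% and all below in 3.01%.

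Among 5 other amidohydrolases 1 difference was positive (median -0.15, or -0.06 without KO replicate 2, against -0.01 over all tested genes). The positive one was Cndp2, a cytosolic dipeptidase that also joins lactate to amino acids. It was at 358.8, 449.8, 438.2 and 347.7 FPKM in WT and at 527.3, 505.9, 459.2 and 460.1 FPKM in KO, with no overlap and a difference of 0.32 ± 0.13. Cndp1, the carnosine dipeptidase, averaged 36.3 ± 3.78 FPKM in the WT mice and 29.9 ± 2.38 FPKM in the KO mice (SD, n = 4 each) with overlap.

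In the mercapturate pathway, whose end products are substrates of Acy3, 7 of 11 differences were positive (median 0.02, or -0.01 without KO replicate 2). Ccbl1, a cysteine conjugate beta-lyase that cleaves the deacetylated conjugates, averaged 46.6 ± 6.22 FPKM in the WT mice and 60.2 ± 5.59 FPKM in the KO mice (0.39 ± 0.12, limma adjusted p = 0.66). Ggt1, the brush-border enzyme that starts the breakdown of glutathione conjugates, lay at 572.7 to 667.4 FPKM in WT and 680.3 to 704.9 FPKM in KO. Its groups did not overlap, but the difference was small, 0.19 ± 0.10.

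Of 12 other acyl-CoA synthetases 4 differences were positive (median -0.05). Acsl1, which activates long-chain fatty acids, was at 45.9, 39.3, 34.5 and 38.8 FPKM in WT and at 33.0, 22.2, 31.7 and 27.5 FPKM in KO. It lay lower in all KO mice, with a difference of -0.44 ± 0.11 (limma adjusted p = 0.42). Acsf2, a mitochondrial medium-chain synthetase, was at 11.9 ± 0.822 and 9.16 ± 2.43 FPKM, with the lowest value, 5.95 FPKM, in KO replicate 2, and its difference was -0.35, or -0.21 without that mouse. The 3 other acyl-CoA amino acid N-acyltransferases tested all had negative differences (median -0.10), which turned to a median of 0.04 without KO replicate 2. Acnat1 was at 13.0 ± 2.24 and 9.51 ± 3.6 FPKM, and Acnat2 at 80.3 ± 26.0 and 72.9 ± 16.1 FPKM, with wide overlap in both. Without KO replicate 2 the difference of Acnat1 went from -0.47 to -0.19, and that of Acnat2 from -0.10 to 0.04.

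**Figure D4:**
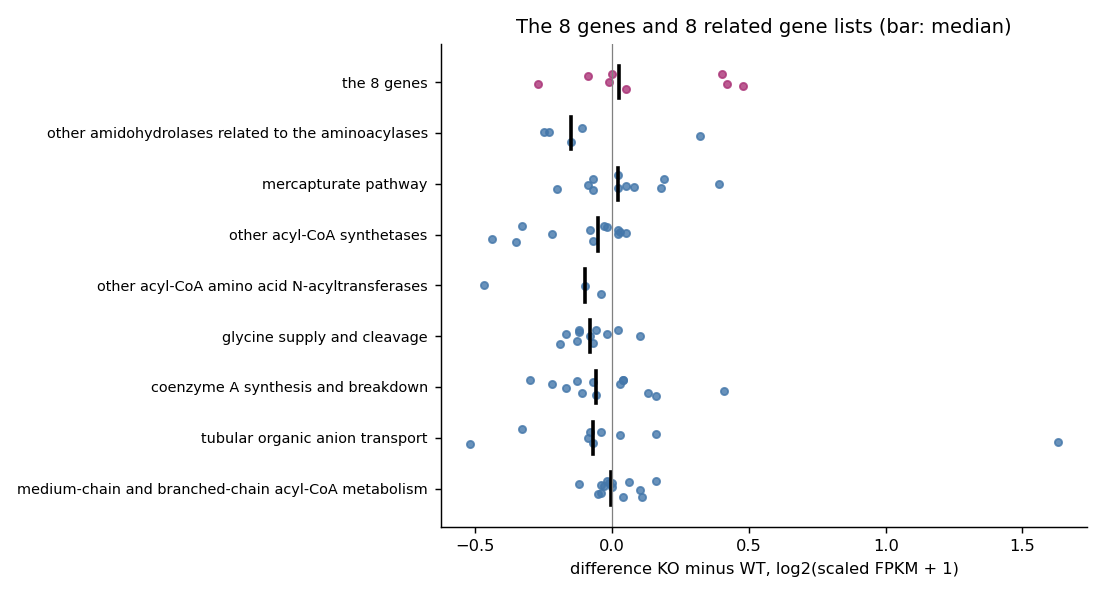
Difference KO minus WT on the log2(scaled FPKM + 1) scale for the 8 genes (purple) and for the tested genes of 8 related lists (blue), 1 point per gene, with a bar at each list's median. The points of each list spread on both sides of 0 apart from the 3 other N-acyltransferases, and the point at 1.63 is Slc22a7.

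Glycine, the partner of the conjugation, is made and broken down by 11 listed genes, of which 2 had positive differences (median -0.08). The mean of this list was -0.11 to -0.06 in KO and -0.05 to 0.06 in WT, apart by a narrow margin. This list too was chosen with earlier results of these data known, so nothing is read from that. Amt, of the glycine cleavage system, averaged 63.2 ± 2.94 FPKM in the WT mice and 55.4 ± 6.35 FPKM in the KO mice, and Shmt1, which makes glycine from serine in the cytosol, at 21.9 ± 0.782 and 19.7 ± 1.75 FPKM. Both overlapped between genotypes. For synthesis and breakdown of coenzyme A, 6 of 13 were positive (median -0.06). Vnn1, a pantetheinase, lay at 38.8 to 44.0 FPKM in WT and 32.6 to 37.7 FPKM in KO without overlap (-0.22 ± 0.09), and Nudt8, a mitochondrial coenzyme A hydrolase, at 4.78 ± 0.894 and 6.57 ± 1.32 FPKM (0.41, or 0.26 without KO replicate 2).

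The transport of organic anions, by which hippurate and mercapturates leave through the tubule, had 3 of 9 positive (median -0.07). Slc22a7, the organic anion transporter OAT2, was at 2.68, 6.16, 7.86 and 3.4 FPKM in WT and at 18.6, 15.2, 27.7 and 8.96 FPKM in KO. Every KO mouse was above every WT mouse, with the widest spread of the genes named here, and the difference was 1.63 ± 0.35 (limma adjusted p = 0.28). Abcc2, an apical pump for conjugates, averaged 55.4 ± 3.96 FPKM in the WT mice and 43.6 ± 7.23 FPKM in the KO mice, lower in all KO mice (-0.33 ± 0.11, limma adjusted p = 0.68). In medium-chain and branched-chain acyl-CoA metabolism 6 of 14 were positive (median -0.01). Pcca, a subunit of propionyl-CoA carboxylase, was at 62.8 ± 1.32 and 56.7 ± 2.29 FPKM, and Bckdha, of the branched-chain ketoacid dehydrogenase, at 246.1 ± 11.7 and 272.3 ± 24.5 FPKM (0.16, or 0.08 without KO replicate 2). Leaving out KO replicate 2 kept the sign of each gene named from these lists except Acnat2.

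The genes most like each of the 8 over all mice were found by the root mean square difference of log2 values standardised over the 8 mice, where 0 is an identical pattern. They share libraries, including KO replicate 2, and the values are descriptions. The closest was Bdh1 for Acy3 (0.21), Tmem116 for Acsm1 (0.30), Kctd15 for Acsm3 (0.27), Phactr4 for Acsm5 (0.11) and Mt1 for Glyat (0.16). For Acy1 and Keg1 it was a gene without a usual symbol, at 0.20 each. The 20 genes most like any of the 8 held 0 of the other 7. Acy1 and Glyat were the nearest pair among the 8 (0.52), and Acsm5 stood farthest from the rest, its nearest being Acsm2 at 1.41. Of the 78 related genes, Slc22a7 was among the 20 most like Acsm3, Slc17a3 among those of Acsm2 and Acsf2 among those of Acsm5. How many of any other 78 tested genes would be found so was not computed, so nothing is read from these.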

How the data were processed

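RNA of 8 kidneys was compared, 4 KO and 4 WT mice as labelled. Replicate numbers follow the order of the samples and pair no mice. The values the authors deposited are FPKM, that is reads counted per gene and scaled by gene length and library total, as their low values show, being whole multiples of a step set by length and library; the header names no unit. The submitters' processing notes list CASAVA, STAR 2.5, HTSeq 0.6.1 and DESeq2 and the build mm10. What each tool did, the annotation and the use of strand are not given in the labels used here.

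Reads and depth were recovered from the FPKM steps with fitted lengths. All 22945 genes above 0 came out whole within 0.002 reads, 5865 of them at the exon length in GENCODE M21. For the others the length was searched for until the reads came out whole. With a gene above 0 in few libraries some length was likely to do so, which is no check of its reads. Libraries were scaled by the trimmed mean of M values of these reads (factors 0.94 to 1.05). limma 3.58.1 (R 4.3.3, trend and robust options, statmod 1.5.0) was fitted to log2(scaled FPKM + 1) for the 12118 genes averaging 1 FPKM or more, with Benjamini-Hochberg adjustment over all of them. Such differences understate the change of low genes. No columns of other samples were present.

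The 8 genes and all lists (8 of related genes, 15 of markers) were chosen with earlier results of these data known. Named besides the 8 were the 2 genes with the lowest p in each related list where none passed, the gene most like each of the 8 (1 is not reported here), C1qtnf1, and overlapping genes. Marker lists with no value in the text are given in the closing section. Alternatives were other scalings, filters and pseudocounts, limma-voom, array weights, leaving out each mouse, the proximal tubule mean as reference and, added after seeing the data, that reference without KO replicate 2, removal of each library's length trend (lowess, span 0.3) and levels by annotated exon length.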

Additional observations from a re-analysis of the deposited data

Results flagged for a closer look

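In 16 groups of 4 mice (8 genes in 2 genotypes), 3 had a mouse standing far from the others by Dixon's ratio of the gap to the range, at the 95% critical value for 4 values. Chance flags about 1 in 20 such groups. Acy3 was at 2362.7 FPKM in KO replicate 2, where the other KO mice had 1799.7 to 1891.6. Glyat was at 136.0 FPKM in the same mouse, where the others had 99.9 to 105.2. Keg1 was at 130.8 FPKM in WT replicate 1, where the other WT mice had 181.6 to 191.7. Without KO replicate 2 the difference between genotypes was 0.28 for Acy3 and -0.22 for Glyat on the log2 scale.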

How the results depend on the processing

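None of the 8 genes passed in any of the 17 alternatives of the test, and none of the 78 related genes in the 12 run for them. Over all tested genes, the counts of 2 higher and 3 lower in KO were 30 and 29 with array weights, and 1 gene was higher with a mean FPKM of at least 5. Leaving out 1 mouse gave 2 to 16 higher and 1 to 12 lower: 9 and 12 without KO replicate 2, 16 and 4 without KO replicate 3, 4 and 5 without KO replicate 4, 4 higher without WT replicate 2, and 1 lower without WT replicate 1 or WT replicate 3. The causes were not tested. Adjusted p (limma, or limma-voom on recovered reads) over the alternatives was 0.26 to 0.96 for Acy3, 0.33 to 0.96 for Acsm3, 0.16 to 0.96 for Acsm5 and 0.53 to 0.96 for Keg1. Leaving out single mice, the difference of Acy3 ranged from 0.28 to 0.48, of Acsm3 from 0.37 to 0.64, of Acsm5 from -0.32 to -0.16 and of Keg1 from 0.27 to 0.55. With array weights it was 0.25 for Acy3, 0.53 for Acsm3, -0.21 for Acsm5, 0.23 for Keg1, -0.17 for Acy1, -0.26 for Glyat, 0.02 for Acsm1 and -0.07 for Acsm2. Depth limits none of the 8, while with 4 mice a group the 95% interval of Acsm3 ran from 0.05 to 0.91. Levels by annotated exon length were lower for all 8, from 1126.8 FPKM for WT Acy3 to 13.0 for WT Acsm3.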

Other observations

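Other cells of the kidney were measured beside these genes, and 0 of their markers passed the threshold (limma, adjusted p). The medians of the differences on the log2 scale were -0.01 for 5 podocyte genes, -0.18 for 5 endothelial genes, -0.16 for 4 genes of the thick ascending limb, -0.13 for 3 of the distal convoluted tubule, 0.19 for 4 of principal cells and -0.04 for 4 of intercalated cells. The median was 0.29 for 5 macrophage genes and 0.03 for 6 genes of fibroblasts and pericytes. Without KO replicate 2 they were 0.10, -0.02, -0.11, -0.07, 0.11, -0.02, 0.42 and 0.19 in the same order. Macrophage means were 0.68 in the highest KO mouse and -0.13 in the lowest. At an unadjusted p under 0.05 there was 1 principal cell gene and 2 of fibroblasts and pericytes.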
